A study of Mus musculus with 9 samples.

Results

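Expression in hindgut that lacks endothelin receptor B was compared with wild type hindgut across functional gene groups, with no starting list of crest or epithelial markers. The comparison used 6 of the 9 arrays of the study, which were those of the 2 groups named in its sample labels: 3 Ednrb null arrays (29, 37 and 41; genotype Ednrb -/-, homozygous for the allele written EdnrB(lacZ/lacZ)) and 3 wild type arrays (1B, 1C and 1D; genotype wt). The third group, Ednrb NCC null (Ednrb-FLEX(NCC-/-), labelled as mutant in NCC cells), served the estimate of spread and a test of whether the mutants differ. All samples were terminal colon of mouse embryos at embryonic day 14 in the sample labels and 14.5 in the series text. The labels name no strain background and no driver of the NCC deletion, and do not say whether an array holds 1 embryo or a pool. The p-values therefore rest on differences among these arrays alone, which may partly be technical.

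Ednrb encodes a G protein-coupled receptor for endothelins. In the developing gut it is needed by enteric neural crest cells, which migrate down the bowel and form its neurons and glia, and loss of the receptor leaves the distal colon without ganglia. The same receptor is also found outside the crest, for example in mesenchyme and vessels. The wall that surrounds the missing crest cells is epithelium, mesenchyme, smooth muscle, vessels and serosa, all of which are in the dissected piece. In RNA from whole tissue, fewer cells of a type and less RNA per cell cannot be told apart.

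Each gene was read by its brightest probe set, and levels are log2 intensities. Values for single arrays are given in the order 29, 37, 41 for Ednrb null and 1B, 1C, 1D for wild type, and a change is the difference of the group means in log2 units with its standard error (SE, n = 3 and 3). A gene was called when the adjusted p of limma was under 0.05. Of 18193 genes, 917 were called, a background share of 5.04%, of which 482 were higher (2.65%) and 435 lower (2.39%) in Ednrb null. Falls were the larger changes, since 106 falls and 35 rises reached 2-fold, and 20 falls and 2 rises reached 4-fold. The count of calls was 477 when Ednrb null 29 was left out, 533 for 37, 606 for 41 and 494 for wild type 1B.

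The receptor gene checked the labels. Ednrb read 9.23, 9.40 and 8.77 in Ednrb null and 11.08, 10.95 and 11.05 in wild type. It fell by 1.89 ± 0.14 (adjusted p = 3.91e-05), and 2 other probe sets fell by 1.62 each. No Ednrb null array reached the wild type range. Of 10 hindgut markers 1 was called, the distal Hox gene Hoxd12, with means of 7.41 and 6.85 in Ednrb null and wild type (0.56 higher, adjusted p = 0.0432). The means were 6.73 and 6.18 for Hoxa13 (adjusted p = 0.0888), 8.51 and 8.20 for Hoxd11 (adjusted p = 0.091), 12.29 and 12.12 for Hoxd13 and 12.60 and 12.62 for the epithelial adhesion gene Epcam, while the probe set of Cdx2 was dim at 6.62 and 6.47. The Actb control had a 3′ to 5′ signal ratio, a measure of RNA integrity, of 0.87 ± 0.06 on the log2 scale in Ednrb null and 1.18 ± 0.13 in wild type (SD, n = 3), and the ranges did not overlap (exact permutation test, 2-sided, p = 0.1, the smallest that 3 against 3 arrays can give). With this ratio as a covariate 131 genes were called, and 10 of the 21 lists described below that held a called gene had none; its part in the changes was not tested further. Each of the 125 called genes listed for description had group ranges that did not overlap. The choice of called genes favours this, and the largest rises and falls were required to have it. Over all genes, 4118 (22.6%) had such ranges.

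A total of 90 functional lists, from the ribosome to ion channels, were counted. They were chosen with earlier results of these data known, so their shares and ranks are a description. At least 1 member was called in 69 of them, 35 had a share of calls above the background of 5.04%, and 11 had a share above 10%. List medians ran from −0.09 to 0.20, beside 0.04 over all genes. The crest, neuron, glia and epithelium lists together held 18 of the 917 calls, so 899 calls lay outside them. Among the marker lists of other cell types, 2 of 12 red blood cell genes, 2 of 14 cartilage genes and 1 of 6 genes of interstitial cells of Cajal were called higher, and 2 of 22 striated muscle genes (median −0.32) and 1 of 16 smooth muscle genes lower. None of the mesothelium, endothelium, macrophage, urogenital, or skin and notochord genes was called. The 10 mesothelium genes had the highest median of the marker lists, 0.62, with a summed intensity of 9895 to 12168 in Ednrb null and 8440 to 10336 in wild type, which overlapped.

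**Figure D1:**
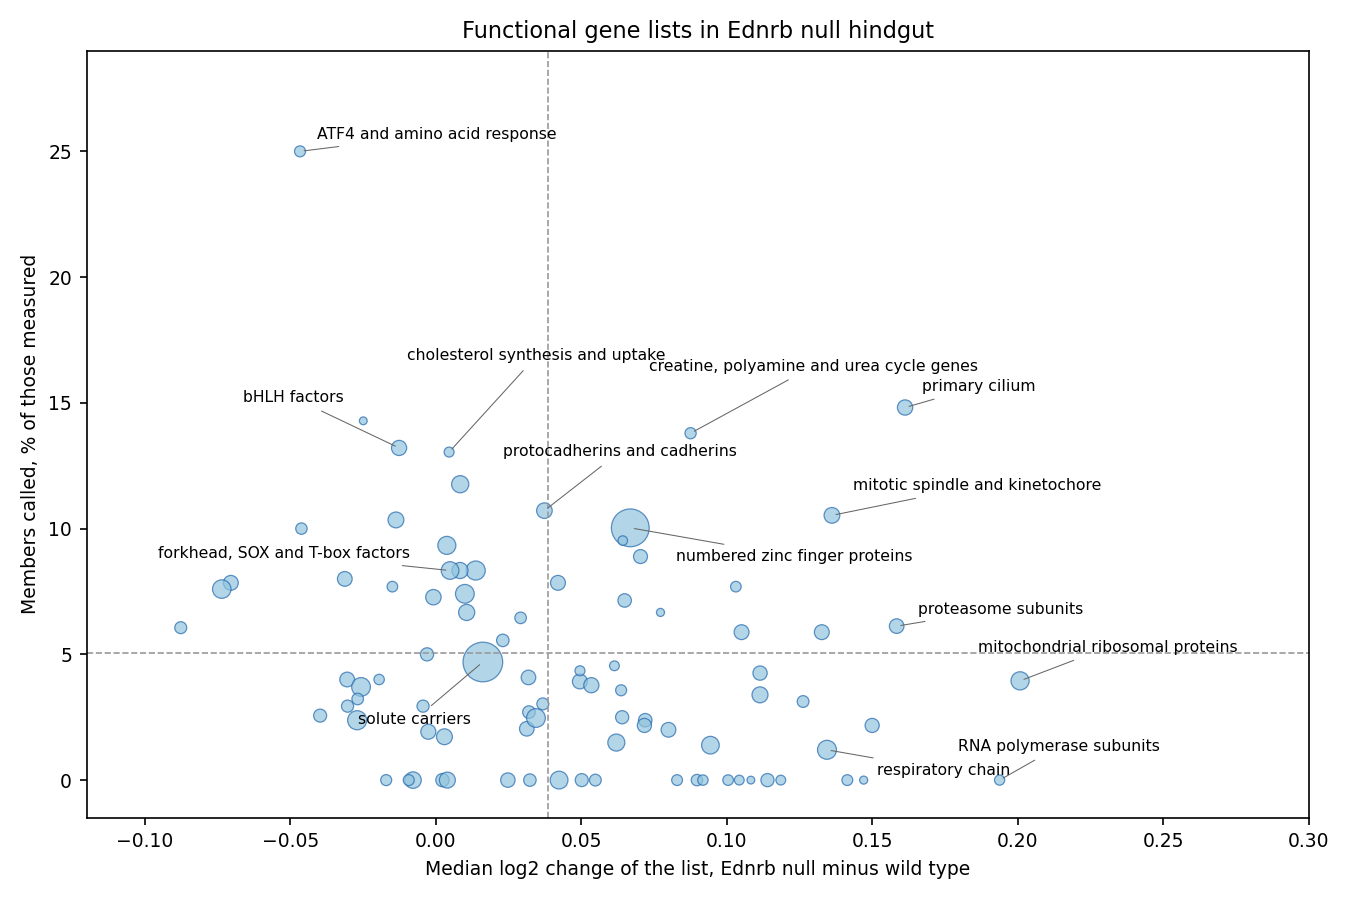
Each circle is 1 of 90 functional gene lists, with the median log2 change (Ednrb null minus wild type) of its measured members on the horizontal axis, the percent of members called on the vertical axis and an area that grows with the number of members; dashed lines mark the values over all genes (median 0.04 and 5.04% called). The ATF4 and amino acid response list stands highest at 25.0% with a median of −0.05, the primary cilium list follows at 14.8%, and the mitochondrial ribosome list lies farthest right at 0.20 with 3.95% called.

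The largest changes were described for genes that 2 or more probe sets read alike. Such a gene was called, had a mean log2 level of 6 or more and had group ranges that did not overlap. It also had another probe set that moved the same way at an unadjusted p under 0.05. This held for 252 of the 479 called genes with such a level and with ranges that did not overlap that had another probe set, 142 of them higher and 110 lower. The widest rise was that of Hbb-bh1, an embryonic beta-like globin of primitive red blood cells. It read 10.23, 10.49 and 10.30 in Ednrb null and 7.89, 8.55 and 8.11 in wild type, a rise of 2.15 ± 0.14 or 4.45-fold (adjusted p = 1.35e-05). Summed intensity of the 12 red blood cell genes was 29647 to 32941 in Ednrb null and 21574 to 27507 in wild type, so that list did not overlap either; its part in the globin value was not tested.

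Several of the other rises were in transport and membrane genes. Slc2a12, a facilitative glucose transporter, read 6.95, 7.19 and 6.98 in Ednrb null and 5.92, 5.60 and 5.60 in wild type, a rise of 1.34 ± 0.11 (adjusted p = 5.37e-05). A second glucose transporter, Slc2a3 (GLUT3), with 1 of 3 other probe sets moving alike, read 11.91, 11.76 and 11.96 in Ednrb null and 11.03, 11.35 and 11.14 in wild type, a rise of 0.70 ± 0.12 (adjusted p = 0.00556). Both transporters were clear of the wild type range on every array. Gpr50, an orphan receptor related to melatonin receptors, read 8.57, 8.26 and 8.32 in Ednrb null and 7.10, 7.13 and 7.25 in wild type and rose by 1.22 ± 0.10. Trpc2 rose by 1.09 ± 0.15, Clic5, an intracellular channel-like protein tied to the actin cortex, by 0.98 ± 0.14, Fxyd2, a regulator of the sodium pump, by 0.85 ± 0.12, and Sspn, the dystrophin complex protein sarcospan, by 0.84 ± 0.12.

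Apoa1, the main protein of high-density lipoprotein, read 7.78, 7.59 and 7.39 in Ednrb null and 6.24, 6.56 and 6.72 in wild type, a rise of 1.08 ± 0.14 (adjusted p = 0.00127) that 3 of 3 other probe sets shared. Fabp4, the fatty acid carrier of adipocytes and some endothelium, rose by 1.05 ± 0.26, but wild type 1B stood at 8.02 below the 9.26 and 9.16 of the other wild type arrays, and without that array the rise was 0.65. Its call (adjusted p = 0.0454) was lost, at adjusted p from 0.0667 to 0.159, when any Ednrb null or Ednrb NCC null array was dropped. Hapln1, which links hyaluronan to proteoglycans and is abundant in cartilage, read 8.53, 8.16 and 8.33 in Ednrb null and 7.19, 7.71 and 7.03 in wild type, a rise of 1.03 ± 0.16; the cartilage list summed to 3030 to 3517 in Ednrb null and 2419 to 2906 in wild type, and its part was not tested. Akr1e1, an aldo-keto reductase, rose by 1.07 ± 0.13, Nptx1, a secreted neuronal pentraxin, by 1.01 ± 0.19, B4galnt2, a glycosyltransferase of the intestine, by 0.86 ± 0.15, and Zfp975, a zinc finger gene, by 0.83 ± 0.14. Hand1, a mesenchymal transcription factor of the gut wall, rose by 0.93 ± 0.14.

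The 15 largest falls read alike included Ret, Sox10, Ednrb itself, Elavl4 and Ngfr, which were members of the crest or neuron lists. They changed by −3.23 ± 0.36, −1.99 ± 0.22, −1.89 ± 0.14, −1.52 ± 0.22 and −1.26 ± 0.21. The fall of Ednrb was not shared by Ednrb NCC null, where its mean was 11.17, a change of 0.15 from wild type. Insm1, which was not in those lists, changed by −2.01 ± 0.23. The others belonged to unlike functions. Csn3, kappa-casein of milk, read 5.09, 5.02 and 4.95 in Ednrb null and 8.13, 9.88 and 9.41 in wild type and fell by 4.12 ± 0.33 (adjusted p = 5.09e-05). Its Ednrb null values stood within 0.14 of each other and those of wild type within 1.75. The Ednrb null values were below log2 6, where 26.7% of genes have their mean, so they may sit near background. Ang, the secreted ribonuclease angiogenin, fell by 2.31 ± 0.14. Serpina1b, an alpha-1 antitrypsin gene, read 8.87, 8.93 and 8.52 in Ednrb null and 10.37, 10.66 and 10.52 in wild type and fell by 1.74 ± 0.19; a near copy, Serpina1c, fell by 1.39 ± 0.13. The probe sets of such copies may share targets. These were the only 2 called of 40 serpins, a share near the 5.04% called over all genes.

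Adhesion and matrix were also among the falls. Itga4, the alpha 4 integrin subunit that binds fibronectin and VCAM1 and is also carried by migrating crest cells, read 7.76, 7.99 and 7.95 in Ednrb null and 9.47, 9.90 and 9.97 in wild type and fell by 1.88 ± 0.14 (adjusted p = 3.85e-05). Col12a1, a collagen that coats fibrils, read 8.86, 8.73 and 8.61 in Ednrb null and 10.20, 10.07 and 9.93 in wild type and fell by 1.33 ± 0.13 (adjusted p = 0.000205). The gap between the groups was 1.48 for Itga4 and 1.08 for Col12a1. Terf1, a telomere-binding protein, fell by 1.53 ± 0.17, Arhgap31, a brake on CDC42 and RAC1, by 1.41 ± 0.19, Anxa8, a calcium-dependent membrane-binding protein, by 1.28 ± 0.18, and Tnnt2, the troponin T of heart muscle, by 1.26 ± 0.21. For Arhgap31 and Tnnt2, 1 other probe set each pointed the opposite way, by 0.27 and 0.18.

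**Figure D2:**
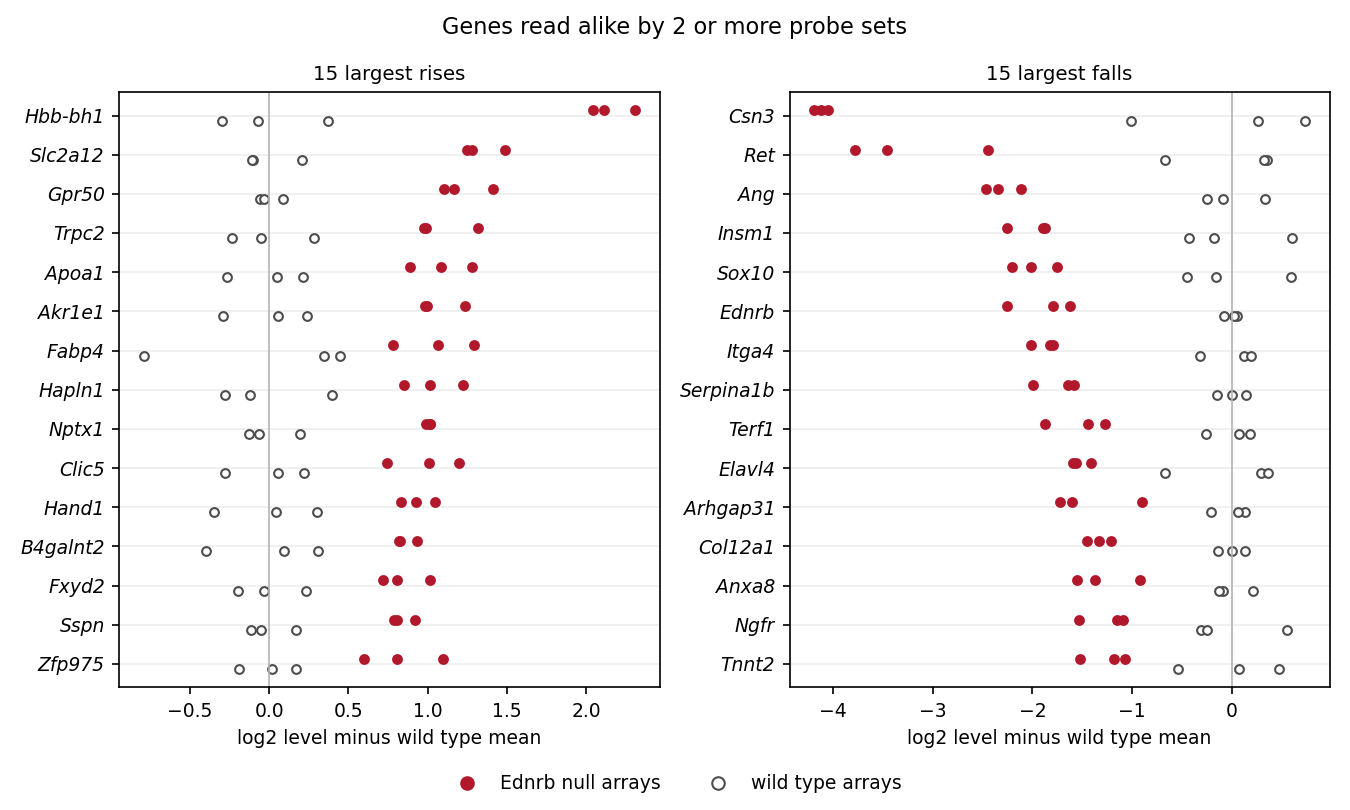
Log2 level of each of the 6 arrays minus the wild type mean, for the 15 largest rises (left) and 15 largest falls (right) among genes that at least 2 probe sets read alike; filled red points are Ednrb null arrays and open points wild type arrays. In every row the red points lie apart from the open points, which the choice of genes required. The group means differ by 0.83 for Zfp975 to 2.15 for Hbb-bh1 on the left. On the right they differ by −1.26 for Tnnt2 to −4.12 for Csn3.

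The ATF4 and amino acid response list had the highest share of calls of the 90 functional lists, a rank that was not tested. Among the marker lists of cell types, the enteric neural crest list had a higher share, with 10 of 16 called. ATF4 is a transcription factor that is translated when amino acids run short or proteins misfold, and it switches on genes that make, import and sense amino acids. Of 28 measured genes of the ATF4 and amino acid response, 7 were called (25.0%), 5 higher and 2 lower, and the list median was −0.05. The 5 that rose act inside the cell. The 2 that fell carry amino acids across the plasma membrane.

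Asns, asparagine synthetase, read 10.31, 10.46 and 10.30 in Ednrb null and 9.79, 9.88 and 9.99 in wild type, a rise of 0.47 ± 0.09 (adjusted p = 0.0105), and its other probe set moved alike. Atf3, a stress-induced transcription factor, read 6.90, 7.34 and 7.10 in Ednrb null and 6.71, 6.51 and 6.58 in wild type, a rise of 0.51 ± 0.11 (adjusted p = 0.0242). Gpt2, mitochondrial alanine aminotransferase, rose by 0.38 ± 0.09, from 8.55 to 8.70 in wild type to 8.97 to 9.08 in Ednrb null. Sesn2, a leucine sensor that holds back mTORC1, rose by 0.35 ± 0.08. Pck2, the mitochondrial PEPCK, which lies on chromosome 14 as Ednrb does, rose by 0.40 ± 0.10. The rises were alike in size, from 0.35 to 0.51, which is under 1.5-fold.

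Slc7a5, the LAT1 transporter for leucine and other large neutral amino acids, read 8.59, 8.71 and 8.61 in Ednrb null and 9.20, 9.42 and 9.15 in wild type and fell by 0.62 ± 0.10 (adjusted p = 0.00519). Slc7a1, the CAT1 transporter for arginine and lysine, read 9.93, 9.81 and 9.88 in Ednrb null and 10.15, 10.38 and 10.16 in wild type and fell by 0.36 ± 0.09 (adjusted p = 0.0448). A glutamine transporter of the solute carrier list, Slc1a5 (ASCT2), fell furthest of these. It read 7.43, 7.79 and 7.09 in Ednrb null and 9.07, 8.998 and 9.04 in wild type and fell by 1.60 ± 0.17 or 3.04-fold (adjusted p = 0.000445), which held with each array left out; its other, dimmer probe set read −0.16. The 3 wild type arrays lay within 0.07 of each other, and the highest Ednrb null array was 1.21 below the lowest of them.

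Other known ATF4 targets were not called. Trib3 changed by −0.06, Chac1 by 0.14, Nupr1 by −0.13, Slc7a11 by −0.03, Fgf21 by −0.24 and Vldlr by −0.35, with adjusted p from 0.435 to 0.907. The calls of this list depended on single arrays: 7 became 3 when Ednrb null 29 or 37 was left out, 2 for Ednrb null 41, 3 for wild type 1B and 2 for wild type 1D. Asns and Slc7a5 kept their calls in all 9 such fits. With the Actb ratio as a covariate 0 of the 28 were called, and of the 7 changes the lowest adjusted p was 0.211, for Slc7a5.

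The promoters of the ATF4 list are shown because the factor binds a defined sequence, the C/EBP-ATF response element. Promoter windows, 250 bases before to 50 after each gene start in RefSeq on GRCm38.p6, were matched by symbol for 24 of the 28 genes and searched on both strands for TGATGNAA. The letters were present in 9 of their 27 windows (33.3%) and in 1304 of all 32851 windows (3.97%). The list holds known ATF4 targets and its share uses no array value, so it describes the list and not these samples. Of the called genes 6 were matched, and 3 had a match, namely Asns, Atf3 and Pck2, each of which rose. The other 6 genes with a match were the uncalled Trib3, Chac1, Nupr1, Slc7a11, Fgf21 and Vldlr, so a match alone did not mark the called genes. A match is a description of the letters and was not tested as a bound site. The windows around the matches of the 3 called genes are written 5′ to 3′ on the gene's strand, with the match in capitals; those of Atf3 and Pck2 lie on the opposite strand and so read as the reverse complement.
Asns: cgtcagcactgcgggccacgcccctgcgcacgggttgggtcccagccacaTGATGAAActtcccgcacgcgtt
Atf3: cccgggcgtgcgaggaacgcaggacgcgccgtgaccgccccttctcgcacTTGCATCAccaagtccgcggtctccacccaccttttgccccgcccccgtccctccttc
Pck2: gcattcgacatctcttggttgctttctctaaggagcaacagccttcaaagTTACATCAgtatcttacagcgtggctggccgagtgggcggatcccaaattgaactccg
These stretches are chr6:7693210-7693282 (minus strand), chr1:191183386-191183493 (minus strand) and chr14:55540113-55540220 (plus strand). The match begins 23 bases before the Asns start, 110 before that of Atf3 and 103 before that of Pck2, counted on the gene's strand.

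Neighbouring stress and growth lists were counted as well. In the unfolded protein response, 3 of 30 genes were called, 1 higher and 2 lower. Pdia3, a disulfide isomerase of the endoplasmic reticulum, read 10.22, 10.27 and 9.88 in Ednrb null and 10.90, 11.17 and 11.35 in wild type and fell by 1.02 ± 0.15 (adjusted p = 0.00333). Edem1, which sends misfolded glycoproteins to disposal, fell by 0.40 ± 0.10, and Ppp1r15a, the phosphatase subunit that restores translation after stress, rose by 0.35 ± 0.09. Pdia3 alone stayed called whichever array was dropped, and the count became 1 when any of Ednrb null 29, 37 and 41, wild type 1B and 1C or Ednrb NCC null 2 and 6 was. Among aminoacyl-tRNA synthetases, which ATF4 also controls, 1 of 32 was called, Lars2 of mitochondria, whose brightest probe set changed by −1.04 and 2 others by −0.03 and 0.97. None of 32 one-carbon and serine metabolism genes, 30 NRF2 and glutathione genes or 36 autophagy genes was called.

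The primary cilium, the antenna on which mesenchymal cells receive Hedgehog and other signals, had the second highest share of the 90 functional lists. Of 54 measured genes, 8 were called (14.8%), 7 higher and 1 lower, with a list median of 0.16. The median of the list, array by array against wild type, was 0.15 to 0.25 in Ednrb null and −0.03 to 0.07 in wild type. The groups did not overlap on this measure, which was not tested. Of all single genes, 22.6% had group ranges that did not overlap, but this share is not a baseline for a median of 54 genes. The share of lists whose medians did not overlap was not counted.

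The genes that rose build the cilium. Tctn2, a tectonic protein of the transition zone at the base of the cilium, read 8.14, 8.37 and 8.24 in Ednrb null and 7.49, 7.54 and 7.65 in wild type, a rise of 0.69 ± 0.11 (adjusted p = 0.00408), which held with each array left out. B9d1, of the same zone, rose by 0.59 ± 0.14. Ift57, Ift74 and Ift81, parts of the IFT-B train that carries cargo to the tip, rose together. Ift57 read 9.37, 9.34 and 9.32 in Ednrb null and 8.82, 8.78 and 8.91 in wild type, a rise of 0.51 ± 0.10 (adjusted p = 0.0134). Ift81 rose by 0.38 ± 0.08, with 1 of its other probe sets reading −0.12, and Ift74 by 0.34 ± 0.08. Ttc21b, of the returning IFT-A train, rose by 0.32 ± 0.08, and Bbs9, of the BBSome coat for membrane cargo, by 0.34 ± 0.09.

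Rpgrip1, which anchors the RPGR complex at the photoreceptor cilium, was the single fall and the largest change of the list. It read 8.12, 7.99 and 8.18 in Ednrb null and 9.94, 10.03 and 9.82 in wild type and fell by 1.83 ± 0.13 (adjusted p = 1.96e-05), but its 3 other probe sets changed by −0.05 to 0.15, and the gene lies on chromosome 14 as Ednrb does. The list's count of 8 became 3 when Ednrb null 29 or 37 was left out, 5 for Ednrb null 41, 2 for wild type 1B, 3 for 1C, 5 for 1D and 5 for Ednrb NCC null 2. With the Actb ratio as a covariate 2 were called, 1 in each direction.

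Genes of ciliated cells are often preceded by an X-box, the sequence that RFX factors bind. The X-box was present on either strand in 11 of the 59 promoter windows (18.6%) matched to 50 of the 54 cilium genes, and in 496 of all 32851 windows (1.51%). Here too the share describes the list and uses no array value. Of the called genes 7 were matched and 1 had a match, Ift57, while 10 of the genes with a match were not called. The Ift57 stretch is shown as the case where a match and a rise met, with the X-box in capitals.
Ift57: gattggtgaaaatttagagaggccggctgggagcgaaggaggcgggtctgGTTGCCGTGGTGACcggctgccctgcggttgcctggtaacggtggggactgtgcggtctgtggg
It lies at chr16:49699157-49699270 (plus strand), and the match, on the opposite strand, begins 87 bases before the gene start.

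**Figure D3:**
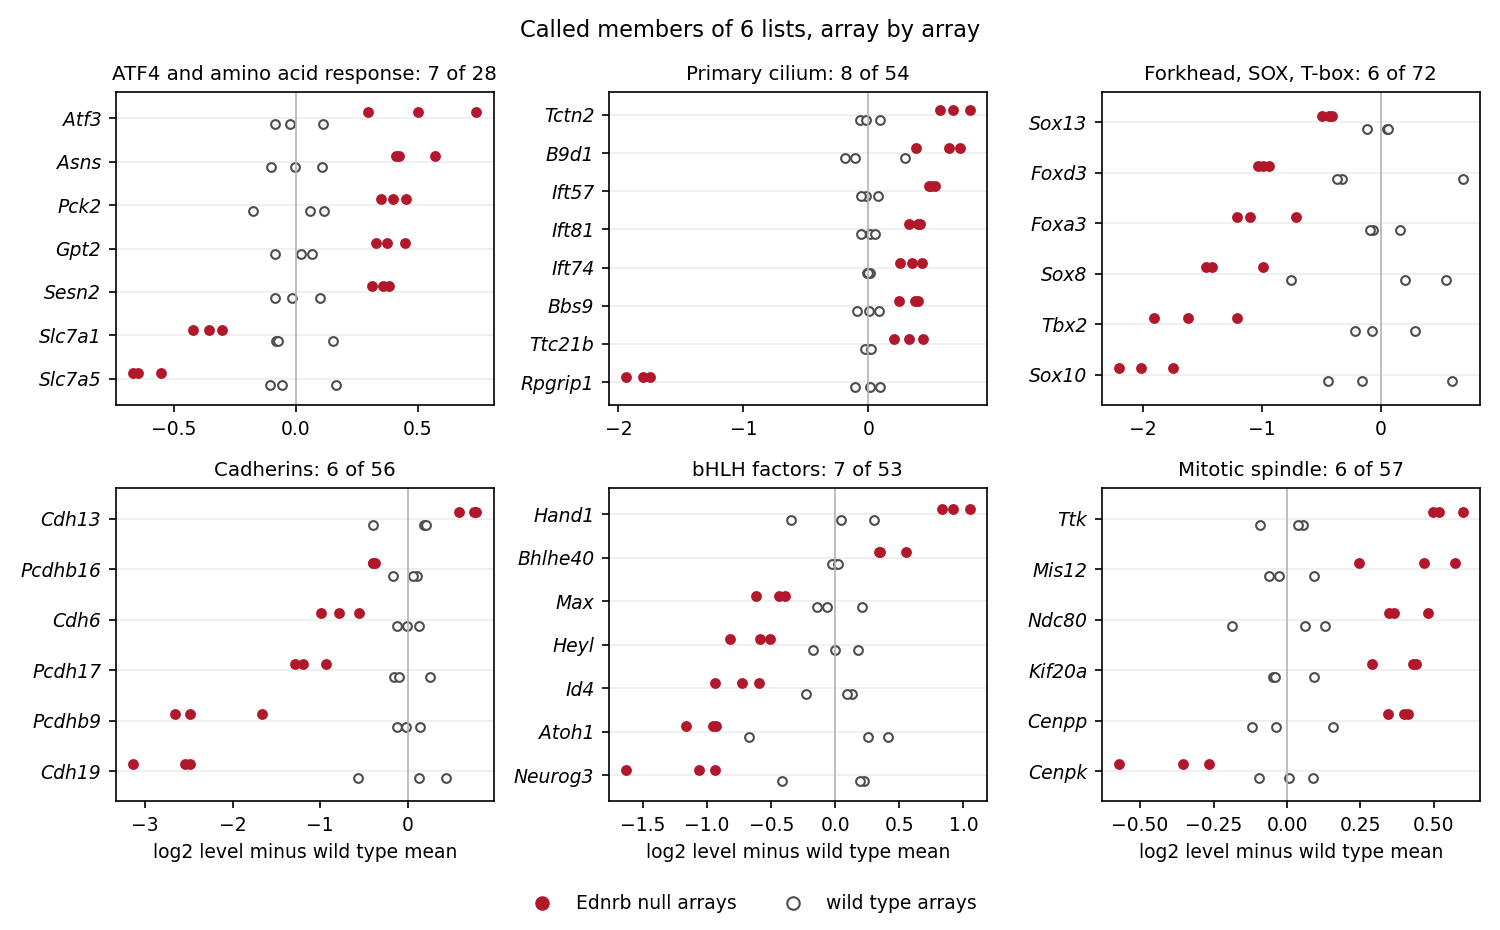
Log2 level of each array minus the wild type mean for the called members of 6 lists, with the number called of those measured in each panel title; filled red points are Ednrb null arrays and open points wild type arrays, and horizontal scales differ between panels. Rises and falls both occur in the ATF4 panel (7 of 28), the cilium panel has 7 rises and Rpgrip1 alone to the left, and the forkhead, SOX and T-box panel holds 6 falls and no rise.

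In the mitotic spindle and kinetochore list 6 of 57 were called (10.5%), 5 higher and 1 lower, with a median of 0.14. Ttk, the checkpoint kinase MPS1, read 10.67, 10.59 and 10.57 in Ednrb null and 9.98, 10.13 and 10.11 in wild type, a rise of 0.54 ± 0.09 (adjusted p = 0.00473), and another probe set moved alike. Kif20a, a kinesin of the midzone, rose by 0.39 ± 0.08, and the kinetochore genes Cenpp, Mis12 and Ndc80 rose by 0.38 ± 0.09, 0.43 ± 0.10 and 0.40 ± 0.10. Cenpk, also a kinetochore protein, fell by 0.40 ± 0.09, and 2 of its other probe sets fell with it. Single arrays moved the count of 6, to 1 when Ednrb null 29 was left out, 2 for 37, 3 for 41, 1 for wild type 1B, 2 for 1D and 3 for Ednrb NCC null 6. Of these genes Ttk kept its call in all 9. With the Actb covariate 0 of the 57 were called and the median was 0.05, and with each gene read by its probe set of largest spread 4 were higher and 3 lower. In DNA replication 1 of 42 genes was called.

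Among transcription factors, of 72 forkhead, SOX and T-box genes, 6 were called (8.33%), all lower, and the list median was 0.00. Tbx2, a T-box repressor of mesenchyme, read 6.57, 7.27 and 6.86 in Ednrb null and 8.26, 8.41 and 8.77 in wild type and fell by 1.58 ± 0.21 or 2.99-fold (adjusted p = 0.00188). Foxa3, a forkhead factor of endoderm, read 7.72, 8.11 and 7.61 in Ednrb null and 8.75, 8.73 and 8.98 in wild type and fell by 1.01 ± 0.15 (adjusted p = 0.00362). The highest Ednrb null array was below the lowest wild type array by 0.99 for Tbx2 and 0.62 for Foxa3. Sox13 fell by 0.45 ± 0.08. The other 3 are crest and glial genes: Sox10 with −1.99 ± 0.22, Sox8 with −1.29 ± 0.26 and Foxd3 with −0.99 ± 0.22.

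Among 81 homeobox genes outside the Hox clusters, 2 were called (2.47%), a share below the background of 5.04%, and both were lower: Dlx1 and Dlx2, neighbours that pattern neurons and pharyngeal arches. Dlx2 read 5.51, 5.63 and 5.60 in Ednrb null and 6.75, 6.69 and 7.21 in wild type and fell by 1.31 ± 0.13 (adjusted p = 0.000366), and Dlx1 fell by 1.05 ± 0.23. Wild type 1D was the highest array for Dlx1, Dlx2, Sox8, Sox10 and Foxd3, and of these only Dlx2 and Sox10 kept their calls with each array left out. The homeobox count of 2 became 1 when Ednrb null 29 or wild type 1D was dropped and 7 for wild type 1C. The direction depended on the setting, with 1 higher and 1 lower without Ednrb null 37 and, of the 26 homeobox genes left without the dimmest 40% of genes, 2 higher and 0 lower. Summed intensity of the 16 crest genes was 4999 to 5675 in Ednrb null and 8817 to 10901 in wild type, with 10 of 16 called; its part in the Dlx values was not tested.

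Of 53 bHLH factors, 7 were called (13.2%), 2 higher and 5 lower. Hand1, which rose by 0.93 ± 0.14, read 9.21, 9.33 and 9.12 in Ednrb null and 7.94, 8.59 and 8.33 in wild type. Id4, an inhibitor of bHLH dimers, read 10.25, 10.59 and 10.46 in Ednrb null and 11.32, 10.95 and 11.28 in wild type and fell by 0.75 ± 0.14 (adjusted p = 0.0125) that 2 of 2 other probe sets shared. Atoh1 and Neurog3, which set secretory and endocrine fates in gut epithelium, fell by 1.02 ± 0.26 and 1.21 ± 0.28, Max, the partner of MYC, by 0.48 ± 0.11, and Heyl, a Notch target, by 0.64 ± 0.15. Bhlhe40, a clock-linked repressor, rose by 0.42 ± 0.10. The count of 7 became 1 when Ednrb null 29 was left out, 2 for 37, 3 for 41, 2 for wild type 1B or 1D and 3 for Ednrb NCC null 5. Hand1 alone kept its call in all 9. The fit with the Actb covariate called 0 of the 53.

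Numbered zinc finger genes were the largest list of repressor-type factors. Of 329, 33 were called (10.03%), 21 higher and 12 lower, with a median of 0.07. Several of the falls were steep. Zfp874a read 4.53, 4.88 and 4.81 in Ednrb null and 7.22, 7.16 and 7.16 in wild type and fell by 2.44 ± 0.10 (adjusted p = 5.18e-07), Zfp979 fell by 2.16 ± 0.14 and Zfp429 by 2.26 ± 0.25. All 3 were below log2 6 in Ednrb null, where 26.7% of genes have their mean, so the lower values may sit near background. Zfp949 fell by 1.04 ± 0.12, and another probe set fell with it. Zfp868 read 9.94, 9.98 and 9.49 in Ednrb null and 8.48, 8.59 and 8.62 in wild type and was the largest rise of these, by 1.24 ± 0.15. Each of the 5 stayed called whichever array was dropped; the list's count was lowest, at 22, when that was wild type 1B. Zinc finger genes of this kind have near-identical copies, and their probe sets may read more than 1 gene.

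Cell adhesion was described by its cadherins. Of 56, 6 were called (10.7%), 1 higher and 5 lower. Cdh19, a cadherin of Schwann cell precursors, read 4.21, 4.80 and 4.86 in Ednrb null and 6.78, 7.47 and 7.78 in wild type and fell by 2.72 ± 0.24 (adjusted p = 0.000106). Pcdhb9, of the clustered protocadherins, read 4.58, 4.42 and 5.41 in Ednrb null and 7.21, 7.06 and 6.94 in wild type and fell by 2.27 ± 0.23 (adjusted p = 0.000327), and its cluster neighbour Pcdhb16 fell by 0.39 ± 0.09. Pcdh17 fell by 1.14 ± 0.17 and Cdh6 by 0.78 ± 0.12. Cdh13, a cadherin anchored by a lipid and found in vessels and muscle, read 9.29, 9.31 and 9.11 in Ednrb null and 8.13, 8.71 and 8.73 in wild type, a rise of 0.71 ± 0.15. Cdh19, Pcdhb9, Pcdh17 and Cdh6 kept their calls with each array left out, but without wild type 1C 4 of the list were higher and 4 lower. Pcdh17 lies on chromosome 14.

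Secreted signals changed gene by gene. In the list of growth factors and their receptors, 4 of 51 were called, 1 higher and 3 lower. Pdgfd, a ligand of PDGF receptor beta, read 5.65, 5.99 and 5.71 in Ednrb null and 7.59, 6.92 and 7.17 in wild type and fell by 1.45 ± 0.20 (adjusted p = 0.00203). Angpt1, the ligand that steadies vessels through TIE2, read 7.97, 8.08 and 7.97 in Ednrb null and 8.55, 8.77 and 8.64 in wild type and fell by 0.65 ± 0.09 (adjusted p = 0.0024). Vegfc, the growth factor of lymphatic vessels, rose by 0.69 ± 0.14. The fourth was Ngfr. When wild type 1C was dropped, 8 of the list were called. None of the 16 endothelium markers was called, and their summed intensity was 8862 to 9806 in Ednrb null and 7774 to 9940 in wild type.

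Of 55 chemokines and their receptors, 4 were called. Ccl11, the eosinophil attractant eotaxin, read 5.90, 6.14 and 5.82 in Ednrb null and 7.43, 6.52 and 7.51 in wild type and fell by 1.20 ± 0.23 (adjusted p = 0.0127), Cxcr4, the receptor for CXCL12, fell by 0.56 ± 0.11, and Ccl28, a mucosal chemokine, by 0.56 ± 0.12. Ccl25, the small bowel chemokine, rose by 0.49 ± 0.11. Cxcr4 stayed called whichever array was dropped, and the count of 4 became 2 for Ednrb null 37 or 41 and 1 for wild type 1B. The count was 0 with the Actb covariate. None of 63 interleukins and their receptors or 59 genes of the TNF family and NF-kB was called, and none of 19 macrophage markers.

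Extracellular proteases and clotting genes held a few rises, the steepest of them in kallikreins. Both called genes of 21 kallikreins rose. Klk13 read 9.08, 8.62 and 8.94 in Ednrb null and 6.84, 7.33 and 6.82 in wild type, a rise of 1.88 ± 0.16 or 3.68-fold (adjusted p = 0.000106), and Klk8, neuropsin, read 10.59, 10.59 and 10.50 in Ednrb null and 9.06, 9.76 and 9.71 in wild type, a rise of 1.05 ± 0.16 (adjusted p = 0.00302). Each held with any array left out. Of 42 complement and coagulation genes 3 were called, 2 higher and 1 lower, with a median of 0.06. With the Actb ratio as a covariate 0 of them were called. Tfpi, which blocks the start of clotting, read 11.29, 11.28 and 11.17 in Ednrb null and 10.35, 10.48 and 10.59 in wild type, a rise of 0.78 ± 0.10 (adjusted p = 0.00117) shared by 3 of 3 other probe sets. Plat, the plasminogen activator tPA, rose by 0.63 ± 0.13, and Cfp, properdin, changed by −0.40; when Ednrb null 29, Ednrb null 37 or wild type 1B was dropped, 1 of the 3 was called. Hpgd, which inactivates prostaglandins, read 8.90, 8.84 and 8.75 in Ednrb null and 7.75, 8.21 and 8.002 in wild type, a rise of 0.84 ± 0.11, and was the 1 called gene of 28 in prostaglandin and leukotriene handling.

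Second messengers and transport gave mixed directions. In cyclic nucleotide signalling 8 of 68 were called (11.8%), 3 higher and 5 lower. The phosphodiesterases, which break down cAMP and cGMP, split: Pde8b fell by 0.64 ± 0.10 and Pde7b by 0.85 ± 0.18, while Pde4b rose by 0.56 ± 0.11, with 2 of its other probe sets alike and 1 at −0.21. Adcy1, an adenylyl cyclase, fell by 0.44 ± 0.11. Of these Pde8b kept its call with each array left out. The list's count became 2 when Ednrb null 29 or wild type 1B was left out. It was 3 for Ednrb null 37 or 41 and wild type 1D, and 4 for Ednrb NCC null 5 or 6. The fit with the Actb covariate called 0 of the 68. Of 362 solute carriers 17 were called (4.70%), 11 higher and 6 lower, a share near the background; the count became 9 when Ednrb null 29 was dropped, 8 for wild type 1B and 27 for wild type 1C. Slc4a2, the anion exchanger AE2, read 8.87, 8.89 and 8.96 in Ednrb null and 9.31, 9.66 and 9.78 in wild type and fell by 0.68 ± 0.11 (adjusted p = 0.0055). Abcb1b, a drug efflux pump, rose by 1.37 ± 0.16, and its other probe set read 0.11.

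Nitrogen and lipid enzymes had a few called changes. Of 29 creatine, polyamine and urea cycle genes 4 were called (13.8%). Cps1, the first enzyme of the urea cycle and of intestinal citrulline synthesis, read 6.59, 6.85 and 6.39 in Ednrb null and 7.76, 7.48 and 7.71 in wild type and fell by 1.04 ± 0.16 (adjusted p = 0.00379). Arg2, mitochondrial arginase, rose by 0.70 ± 0.13, Got1, an aspartate aminotransferase, rose by 0.46 ± 0.11, and Ckb, brain-type creatine kinase, fell by 0.70 ± 0.17. Cps1 and Arg2 kept their calls with each array left out, and Got1 and Ckb did not. The count of 4 became 2 for Ednrb null 29, Ednrb null 41 or Ednrb NCC null 5. It was 2 in the fit of 2 groups and 1, a fall, with the Actb covariate.

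In cholesterol synthesis 3 of 23 were called (13.04%). Srebf2, the master regulator of that pathway, read 8.76, 8.90 and 8.64 in Ednrb null and 9.19, 9.22 and 9.36 in wild type and fell by 0.49 ± 0.09 (adjusted p = 0.00965), with its other probe set alike. The enzymes split, since Tm7sf2 fell by 0.45 ± 0.10 and Hsd17b7 rose by 0.46 ± 0.10. When Ednrb null 29 or 41 was dropped, 1 of these 3 calls was left. The fit of 2 groups called 2 of the 23, and the fit with the Actb covariate 0. In fatty acid synthesis 2 of 36 were called. Me1, malic enzyme, which supplies NADPH, read 8.73, 8.66 and 8.66 in Ednrb null and 8.14, 7.88 and 8.09 in wild type, a rise of 0.65 ± 0.09 (adjusted p = 0.00249) that its other probe set shared, and Fads2, a desaturase, fell by 0.56 ± 0.14. None of the genes of fatty acid oxidation, the tricarboxylic acid cycle or the 73 cytochrome P450 enzymes was called.

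The steepest single fall of an enzyme was that of Galc, the lysosomal galactosylceramidase that breaks down myelin lipid. It read 5.32, 5.49 and 5.04 in Ednrb null and 8.84, 8.84 and 8.999 in wild type and fell by 3.61 ± 0.11 (adjusted p = 5.52e-08), but its 2 other probe sets changed by −0.01 and 0.18. It was the 1 called fall of 50 lysosomal hydrolases. Akr1c19, a hydroxysteroid dehydrogenase-like gene with 1 probe set, read 6.95, 7.42 and 6.71 in Ednrb null and 9.15, 9.30 and 9.18 in wild type and fell by 2.19 ± 0.31.

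Mucin-type O-glycosylation and sialylation, which build the sugar chains of mucus, had 6 of 79 genes called (7.59%), 2 higher and 4 lower, with a median of −0.07. Fut10, a fucosyltransferase, read 7.75, 7.78 and 7.70 in Ednrb null and 8.32, 8.38 and 8.60 in wild type and fell by 0.68 ± 0.10 (adjusted p = 0.00239). St6galnac2 fell by 0.71 ± 0.12, Galnt12, an initiating transferase of colon, by 0.91 ± 0.22, and B3galt5 by 1.01 ± 0.24, while B4galnt2 rose by 0.86 ± 0.15 and Gcnt1, a core branching enzyme, by 0.77 ± 0.19. Fut10, St6galnac2 and B4galnt2 kept their calls with each array left out, while the count of 6 became 3 for Ednrb null 29, wild type 1B or Ednrb NCC null 6 and 13 for wild type 1C. Summed intensity of the 26 gut epithelium markers was 46564 to 62521 in Ednrb null and 56607 to 62051 in wild type, so it overlapped, and 2 were called.

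A last group of lists shifted by a little in many genes, with few calls. Mitochondrial ribosomal proteins, the translation machinery for respiratory chain subunits, had 69 of 76 genes above 0 and a median of 0.20. Over all genes, 10954 of 18193 were above 0. In the list 3 were called, all higher, a share of 3.95% that is below the background of 5.04%. Mrps18a read 11.16, 11.36 and 11.13 in Ednrb null and 10.50, 10.79 and 10.82 in wild type, a rise of 0.51 ± 0.11 (adjusted p = 0.0195), and Mrps2 and Mrpl32 rose by 0.36 ± 0.09 and 0.42 ± 0.10. By array, the list median was 0.14 to 0.31 in Ednrb null and −0.17 to 0.15 in wild type, so the groups overlapped. In the fit with the Actb covariate the median was 0.06, as over all genes in that fit, and 0 were called. The 3 rises became 0 when Ednrb null 29 or 37 was dropped and 1 for Ednrb null 41 or Ednrb NCC null 6; without wild type 1B there were 0 rises and 1 fall.

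Similar medians were seen in RNA polymerase subunits (0.19, 0 of 24 called), proteasome subunits (0.16, 3 of 49 called, all higher), Mediator and Integrator (0.15, 1 of 46), respiratory chain and ATP synthase (0.13, 1 of 83) and tRNA modification (0.13, 3 of 51, all higher). Psmb6, a catalytic proteasome subunit, read 12.45, 12.63 and 12.45 in Ednrb null and 11.84, 12.01 and 12.14 in wild type, a rise of 0.51 ± 0.10 (adjusted p = 0.011), Psma8, an alpha subunit otherwise known from testis, rose by 0.52 ± 0.09, and Psmf1, a proteasome inhibitor, by 0.56 ± 0.09. All 3 kept their calls with each array left out, and 5 of the list were called without Ednrb null 41. With the Actb covariate 0 of the proteasome list were called and its median was 0.03. The respiratory chain gene was Ndufs4 of complex I, which rose by 0.44 ± 0.09 and lost its call when Ednrb null 29, Ednrb null 37 or wild type 1B was dropped.

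The tRNA modification list held the steepest rise of these. Adat2, the catalytic subunit that turns adenosine into inosine in tRNA anticodons, read 9.85, 10.10 and 10.07 in Ednrb null and 8.21, 8.31 and 8.53 in wild type, a rise of 1.65 ± 0.10 or 3.15-fold (adjusted p = 8.4e-06), and the gap between the groups was 1.32. Elp4, of the Elongator complex that modifies wobble uridines, rose by 0.52 ± 0.09, with another probe set alike, and Thg1l, which adds the extra guanosine to histidine tRNA, rose by 0.77 ± 0.15, with another probe set at −0.14. Adat2 was still called with the Actb covariate (1.49, adjusted p = 0.00201).

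**Figure D4:**
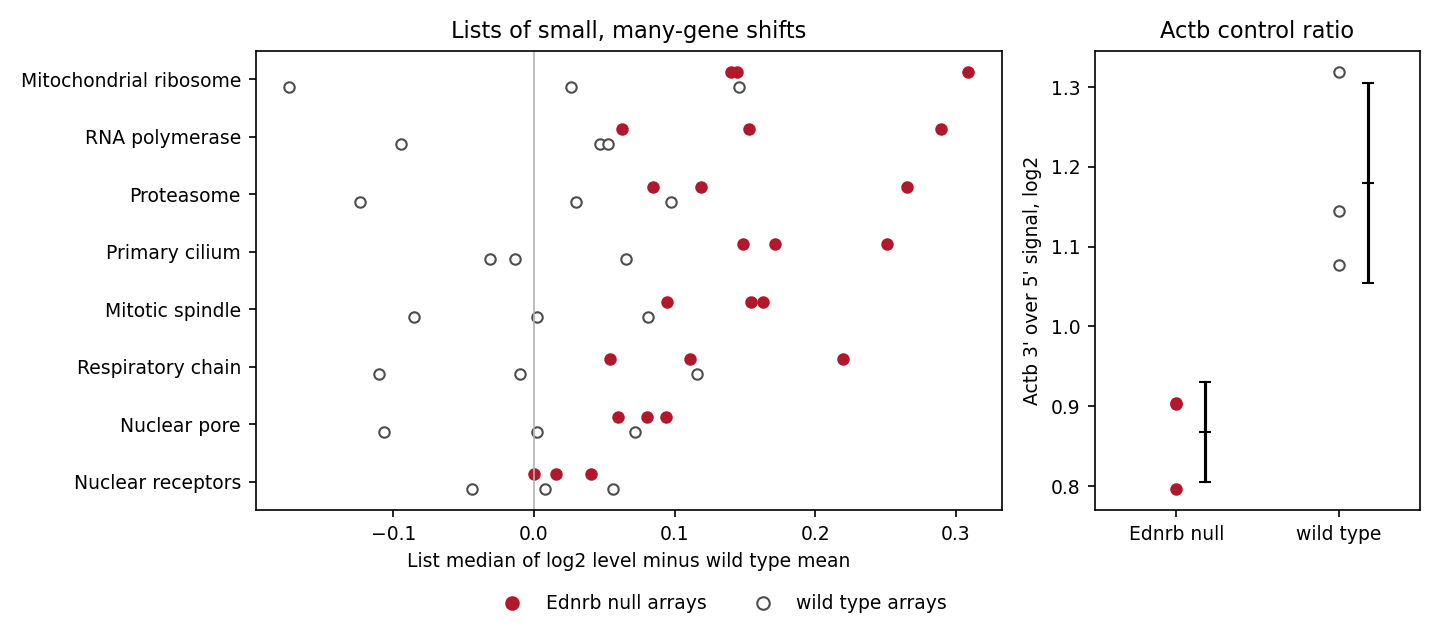
Left, the median over each of 8 lists of log2 level minus the wild type mean, 1 point per array, filled red for Ednrb null and open for wild type; right, the log2 ratio of 3′ to 5′ signal of the Actb control per array, with the mean and SD beside the points. The mitochondrial ribosome medians reach 0.31 in Ednrb null and 0.15 in wild type and overlap, the cilium medians do not overlap, and the Actb ratio is lower in each Ednrb null array (0.80 to 0.90) than in wild type (1.08 to 1.32).

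Grouping genes by the letters of their symbols, which uses no knowledge of function, gave 138 families of 15 or more genes, of which 49 had no called gene. The highest medians were those of Mrps (0.20), Mrpl (0.20), Polr (0.19), Med (0.17) and Dhx (0.16), beside 0.04 over all genes. The lowest, with a family of unnamed clones left out, were Galnt (−0.13), Col (−0.13), Klf (−0.07) and Unc (−0.06). Galnt enzymes attach the first sugar of mucin-type chains. They were below 0 in 14 of 16 genes, beside 7239 of 18193 over all genes. By array the family median was −0.19 to −0.15 in Ednrb null and −0.09 to 0.09 in wild type. The family was named for its low median, which favours both, and neither was tested. Of the 16 genes 1 was called, beside 5.04% of all genes.

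Whole classes had no called gene. Of the 90 lists, 21 with 716 genes had none, among them 41 nuclear receptors, 39 olfactory receptors, 40 genes of purine and pyrimidine synthesis, 25 of the nuclear pore and 48 myosins and actin nucleators. In simulated data of the same size limma recovered 44 of 58 genes changed 1.5-fold and 68 of 74 changed 2-fold. A change near 1.5-fold in such a class could therefore be missed. The simulated noise was independent between genes, so recovery in these arrays may differ.

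The Ednrb null arrays were also set against Ednrb NCC null, in which the labels place the mutation in NCC cells. Of the 917 called genes, 322 (35.1%) differed between the mutants as well, 131 of the rises and 191 of the falls, beside 6.52% of all genes. Both comparisons use the Ednrb null arrays, so this share is a description. Genes named next are given as means in the order Ednrb null, Ednrb NCC null, wild type. Cps1 averaged 6.61, 8.32 and 7.65. Slc2a12 averaged 7.04, 5.79 and 5.70, and Gpr50 8.38, 7.09 and 7.16, so for both genes the Ednrb NCC null mean lay near wild type. The mutants' difference had an adjusted p of 0.000187 for Slc2a12 and 5.47e-05 for Gpr50. The mitochondrial ribosomal list had a median difference from wild type of 0.22 in the NCC mutant and 0.20 in the null; these share the wild type arrays. Against wild type, 4.96% of all genes were called in the NCC mutant.

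On chromosome 14, which carries Ednrb, 34 of 647 genes were called (5.26%), beside 5.03% elsewhere. Falls of 2-fold or more were 10 of 647 there (1.55%) and 96 of 17498 elsewhere (0.549%). Ang, Rpgrip1, Pcdh17, Anxa8 and Pck2 lie on that chromosome; linkage to the targeted allele and the loss of the receptor cannot be told apart for them.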

How the data were processed

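RNA was hybridised to Affymetrix MOE430 version 2 arrays, with cRNA made from 150 ng of total RNA per the labels' protocols. What the authors deposited is an intensity for every probe set on every array, on the linear scale from 5.69 to 61637. Per the submitters' processing notes it came from RMA, whose version is not given in the sources used here. That method evens out the arrays and shrinks dim differences. Array medians were 112 to 116, and the number of arrays limits the precision. Values were taken to log2 with no pseudocount and no filter.

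Of 45101 probe sets, 34945 named 1 gene in the platform's annotation, 932 several, and 9160 were not in it. The brightest per gene (mean over the 9 arrays) gave 18193 genes. All 3 groups were fitted with limma 3.58.1 (lmFit, eBayes, R 4.3.3), 2-sided, with Benjamini-Hochberg adjustment over all genes. Tested on simulated data, limma recovered 44 of 58 genes changed 1.5-fold, 68 of 74 changed 2-fold and 68 of 68 changed 4-fold, with 6 false calls. The simulated noise was drawn separately for each gene and array and held no shift shared across an array. These figures therefore do not measure false calls from such shifts.

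The comparison, the lists and the rule for named genes were chosen with earlier results of these data known, so lists carry no test. The rule took Ednrb and the 15 largest rises and 15 largest falls read alike by another probe set, with ranges that did not overlap. It then took up to 5 members per list by p and every called member where 5 or fewer were called. Pck2, Slc7a1, Slc2a3, B9d1, Ttc21b, Bbs9, Ndc80, Atoh1, Heyl, Pcdhb16 and Gcnt1 were named after their values were seen, and the uncalled ATF4 targets for their promoter match. Alternatives were array centring, quantile normalization, a filter on the dimmest 40% of genes, 2 groups only, eBayes with trend and robust, other probe set rules, other thresholds, the Actb ratio as covariate and each array left out. Promoters came from RefSeq on GRCm38.p6.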

Additional observations from a re-analysis of the deposited data

Results flagged for a closer look

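Between the mutants, a direct comparison of the Ednrb null and Ednrb NCC null arrays picked out 46 of the named genes, 16 that rose and 30 that fell against wild type, each with an adjusted p under 0.05 for the difference between the mutants itself (limma, n = 3 and 3). In 45 of them Ednrb null lay beyond Ednrb NCC null in the direction of its change from wild type, which the choice of genes changed in Ednrb null favours. Ednrb NCC null was itself called against wild type in 9. Among membrane transporters, pumps and their regulators, the difference between the mutants in log2 units was that of Slc7a5 (−0.38), Slc7a1 (−0.36), Slc1a5 (−1.17), Slc4a2 (−0.43), Slc2a3 (0.80), Slc2a12 (1.25) and Abcb1b (1.14). For transcription factors and zinc finger genes the values were those of Foxa3 (−1.47), Neurog3 (−1.58), Atoh1 (−1.52), Heyl (−0.58), Max (−0.65), Zfp874a (−2.84), Zfp429 (−2.50) and Zfp868 (0.61). In adhesion, matrix and signalling genes they were those of Pcdhb9 (−2.33), Pcdh17 (−0.68), Hapln1 (0.68), Pde8b (−0.65), Adcy1 (−0.50), Angpt1 (−0.68), Vegfc (0.59), Cxcr4 (−0.49), Gpr50 (1.29), Ednrb (−2.04) and Arhgap31 (−1.16). Enzymes, proteases and their inhibitors gave Cps1 (−1.70), Fads2 (−0.63), Galnt12 (−1.56), B3galt5 (−1.01), Galc (−2.19), Akr1c19 (−2.00), Pdia3 (−0.92), Klk13 (0.62), Serpina1b (−0.75), Adat2 (1.10) and Thg1l (1.18). The remaining genes were Tctn2 (0.52), Kif20a (0.38), Cenpk (−0.57), Mrps18a (0.45), Psmf1 (0.43), Anxa8 (−0.89), Tnnt2 (−1.48) and Hbb-bh1 (1.13). Clic5 ran the other way (−0.66), since it rose by 0.98 in the null and by 1.64 in the NCC mutant.

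Some genes stood on opposite sides of wild type in the mutants, and of these the Ednrb NCC null change was called for Cps1 but not for Galnt12, Atoh1 or Foxa3. Galnt12, an initiating enzyme of mucin-type chains, changed by −0.91 in the null and 0.65 in the NCC mutant, and Atoh1, the factor of secretory cells, by −1.02 and 0.50. The endodermal factor Foxa3 changed by −1.01 and 0.46, and the urea cycle enzyme Cps1 by −1.04 and 0.66. For the amino acid transporter Slc1a5 the changes were −1.60 and −0.43, on the same side. Pairs of changes from wild type share its 3 arrays.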

How the results depend on the processing

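No paired analysis was possible because the groups compared share no replicate numbers. The 917 calls became 561 (267 higher) in a fit of only the 2 groups, 131 (49 higher, 82 lower) with the Actb ratio as a covariate, 1459 (813 higher) at an adjusted p under 0.10 and 470 (189 higher, 281 lower) with at least 1.5-fold; the probe set of largest spread gave 673 lower. Leaving out 1 array gave 477 to 1102 calls, 205 to 479 of them higher and 240 to 623 lower. Centring, quantile normalization, trend and robust, the mean of probe sets and the filter on dim genes kept all 3 counts within 1.5 times. The covariate ran from 0.80 to 0.90 in Ednrb null and from 1.08 to 1.32 in wild type, which did not overlap. In Ednrb NCC null it ran from 1.03 to 1.40 and overlapped wild type. The cause of the loss of calls was not tested.

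Of 125 called genes described above, 74 kept their call in all 9 fits without 1 array, 87 in the fit of 2 groups, 118 after quantile normalization, 122 after centring and 37 with the covariate. Direction was kept in these fits except for Ift81, at −0.12 when read by the probe set of largest spread. Of 145 other probe sets of these genes, 18 pointed the opposite way: Rpgrip1 (0.15 and 0.061), Ift81 (−0.12), Neurog3 (0.16), Cdh13 (−0.0040), Pcdhb16 (0.012), Pde4b (−0.21), Pde7b (0.13), Vegfc (−0.16), Ccl28 (0.069), Psmf1 (−0.045), Thg1l (−0.14), St6galnac2 (0.070), Arhgap31 (0.27), Tnnt2 (0.18), Clic5 (−0.068), Fxyd2 (−0.13) and Galc (0.18). Signal over background was not given per probe set, so values near the low end have only a loose lower limit. Among the lists, the excess of rises or falls turned for ATF4 without Ednrb null 37 (1 higher, 2 lower), bHLH factors without Ednrb null 29 (1 and 0), cyclic nucleotide signalling after centring (3 and 2) and without Ednrb null 41 (2 and 1), solute carriers (7 and 8) and mucin-type glycosylation (3 and 2) without Ednrb null 41, the unfolded protein response with the mean of probe sets (2 and 1) and zinc finger genes with the covariate (1 and 3), beside the homeobox and mitochondrial ribosome cases given above. In the fit of 2 groups the calls were 3 for ATF4, 5 for the cilium, 1 for the spindle and 0 for mitochondrial ribosomal proteins.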
